A study of Rattus norvegicus with 8 samples.

Results

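The genes described here encode regulators of the decay of inflammatory mRNAs, and they were chosen by name: Zfp36, Zfp36l1, Zfp36l2, Zc3h12a, Rc3h1, Elavl1, Btg1, Btg2 and Tob1. Their probes were the non-control probes annotated with a rat RefSeq transcript of 1 of these genes. This rule found 12 probes in 32 spots for 8 of the 9 genes, among 45598 probes in all; no probe was matched to Rc3h1, which was therefore not analysed here. Of the 12 probes 10 passed the filter on dim signal described below, and 6 of the 9 genes were among the 13460 genes tested.

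The samples were cultures of NR8383 cells, a macrophage line established from normal rat lung lavage and grown with 15% fetal bovine serum. They had been exposed for 4 h to zinc oxide (ZnO), with 4 arrays at 16 µg/mL and 4 arrays at 4 µg/mL, and each array is named by its dose and the replicate number of its title. The series' design also mentions untreated cells, which were not analysed here, so every difference below is ZnO 16 minus ZnO 4. By the sample descriptions, cells exposed to 16 µg/mL had been through 200 passages and cells exposed to 4 µg/mL through 20. If the names of the array files are right, the arrays of a dose shared a slide that held no other dose. The dose therefore cannot be told apart from slide, scan or passage.

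Macrophages keep the mRNAs of cytokines and early response genes short-lived. ZFP36, also called tristetraprolin, and its relatives ZFP36L1 and ZFP36L2 are zinc finger proteins that bind AU-rich stretches of such mRNAs and recruit the CCR4-NOT deadenylase, while ELAVL1 (HuR) binds similar stretches and is known mainly as a stabiliser. ZC3H12A (regnase-1) is an endoribonuclease and RC3H1 (roquin-1) an RNA-binding protein, and both act on stem-loops in inflammatory mRNAs. BTG1, BTG2 and TOB1 are antiproliferative proteins that bind the deadenylase subunits of CCR4-NOT.

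The promoter windows of 3 genes are shown because Zfp36l1 and Zc3h12a each had a probe called higher at 16 µg/mL and Zfp36l2 had probes called lower, as described below. They were taken from RefSeq on GRCr8 and run from 250 bases before to 50 bases after the annotated transcript start, 5′ to 3′ on the strand of the gene. Capitals mark letters that matched a searched motif. The Zfp36l1 window lies at chr6:104668641-104668940 on the minus strand, the Zfp36l2 window at chr6:16242372-16242671 on the plus strand and the Zc3h12a window at chr5:142669936-142670235 on the minus strand.
Zfp36l1: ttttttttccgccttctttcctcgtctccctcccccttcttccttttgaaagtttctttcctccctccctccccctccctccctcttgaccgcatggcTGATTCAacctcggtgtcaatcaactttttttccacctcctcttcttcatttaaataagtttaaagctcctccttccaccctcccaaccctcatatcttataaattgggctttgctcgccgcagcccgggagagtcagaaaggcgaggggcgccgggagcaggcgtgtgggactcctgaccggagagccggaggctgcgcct
Zfp36l2: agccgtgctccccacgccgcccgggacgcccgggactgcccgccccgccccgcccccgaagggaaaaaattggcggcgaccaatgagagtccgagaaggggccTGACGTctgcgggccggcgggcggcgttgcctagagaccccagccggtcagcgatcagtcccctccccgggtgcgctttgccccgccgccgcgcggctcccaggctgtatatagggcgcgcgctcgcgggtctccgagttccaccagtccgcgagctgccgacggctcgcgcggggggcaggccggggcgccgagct
Zc3h12a: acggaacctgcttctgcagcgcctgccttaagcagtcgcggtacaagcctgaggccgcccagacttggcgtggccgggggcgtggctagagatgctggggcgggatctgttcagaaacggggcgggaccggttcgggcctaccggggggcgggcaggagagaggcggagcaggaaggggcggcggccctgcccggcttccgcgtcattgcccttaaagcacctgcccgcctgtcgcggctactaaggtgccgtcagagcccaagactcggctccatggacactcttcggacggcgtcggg

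Both strands were searched for metal response element cores (TGCACNC and TGCGCNC), the AP-1 site TGANTCA, the cyclic AMP response element TGACGTCA and its half-site TGACGT, the heat shock unit GAANNTTC, and the NF-kB site and CArG box. The full cyclic AMP response element contains the half-site, so these matches overlap. The Zfp36l1 window held 1 AP-1 site, found in 7.33% of 33469 promoter windows. The Zfp36l2 window held 1 cyclic AMP response half-site, found in 7.94% of windows. None of these letters were found in the Zc3h12a, Btg1 and Tob1 windows. The Btg2 window held the full cyclic AMP response element, found in 1.83% of windows, and a TGCGCNC core, found in 14.1%. The Zfp36 window held a CArG box, found in 1.64% of windows, the Elavl1 window a TGCGCNC core, and the Rc3h1 window a TGCGCNC core and an AP-1 site. A match describes the letters of the window and is not a binding site.

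Levels below are log2 processed signals relative to the 75th percentile of the non-control spots of the same array. That percentile was a signal of 151 to 381 on the ZnO 16 arrays and of 313 to 516 on the ZnO 4 arrays. A spot counts as well above background by the scanner software's own flag, and between 31.5% and 35.8% of probes at 16 µg/mL and between 31.8% and 39.3% at 4 µg/mL met this. Genes entered the test if a probe met this on 3 or more arrays of either dose. Differences were tested with limma over all 13460 genes, with Benjamini-Hochberg adjustment, and are called at an adjusted p under 0.05. Scaling matters here: without any scaling the median gene differed by -0.75, and after scaling to the spike-in controls by -0.80. On the scale used, 6 of 8 spike-in probes were higher at 16 µg/mL, by 1.15 to 1.62, and 2 were lower, by -0.68 and -0.21; these are RNAs added in the laboratory. Of the macrophage markers on the array, 6 of 8 were well above background on all 8 arrays, among them Cd68, Lyz2 and Csf1r, while Marco and Adgre1 were so on none. Of the 6 tested 0 were higher and 2 lower (Cd68 by -1.74 and Itgam by -0.52), and the list's summed relative signal was 148 to 231 at 16 µg/mL and 167 to 220 at 4 µg/mL. Most of that sum came from 1 Lyz2 probe, with log2 means of 7.37 at 16 µg/mL and 7.35 at 4 µg/mL. Among the other kept Lyz2 probes were differences of -1.41 and 0.73. Fewer cells of a type and less RNA per cell cannot be told apart in bulk samples. Of markers of other cell types on the array, 0 of 6 epithelial, 1 of 5 fibroblast, 0 of 4 lymphocyte and 3 of 4 endothelial genes were well above background on all arrays, and the summed relative signal of the endothelial list was 5.10 to 7.35 at 16 µg/mL and 10.4 to 13.3 at 4 µg/mL. Most of the endothelial sum came from 1 Vwf probe, which differed by -0.95, while another kept Vwf probe differed by 0.89 (limma adjusted p = 0.108 over all probes). For the lymphocyte list the summed relative signal was 0.0673 to 0.111 at 16 µg/mL and 0.157 to 0.201 at 4 µg/mL, and its only tested gene, Cd3d, was lower by -1.22. Neither the part of these lists nor that of the macrophage list in the results was tested.

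Of the 6 genes tested, 2 were called higher at 16 µg/mL (Zfp36l1 and Zc3h12a) and 2 lower (Btg1 and Tob1), while Zfp36l2 and Elavl1 did not pass. The Tob1 probe entered the test only through the ZnO 4 arrays, where it was high, so its call supports nothing by itself. The call rate over all genes was 41.7%, with 19.8% higher and 21.9% lower, so a count of this size over so few genes says little by itself. The median of the 6 differences was -0.03 and that of all genes 0.00. The result for Zfp36l2 depended on the probe: the one with the highest mean signal, which stood for the gene, did not pass, while the other 2 probes were called lower. The plots of single arrays, of the differences and of single spots show each of these.

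**Figure D1:**
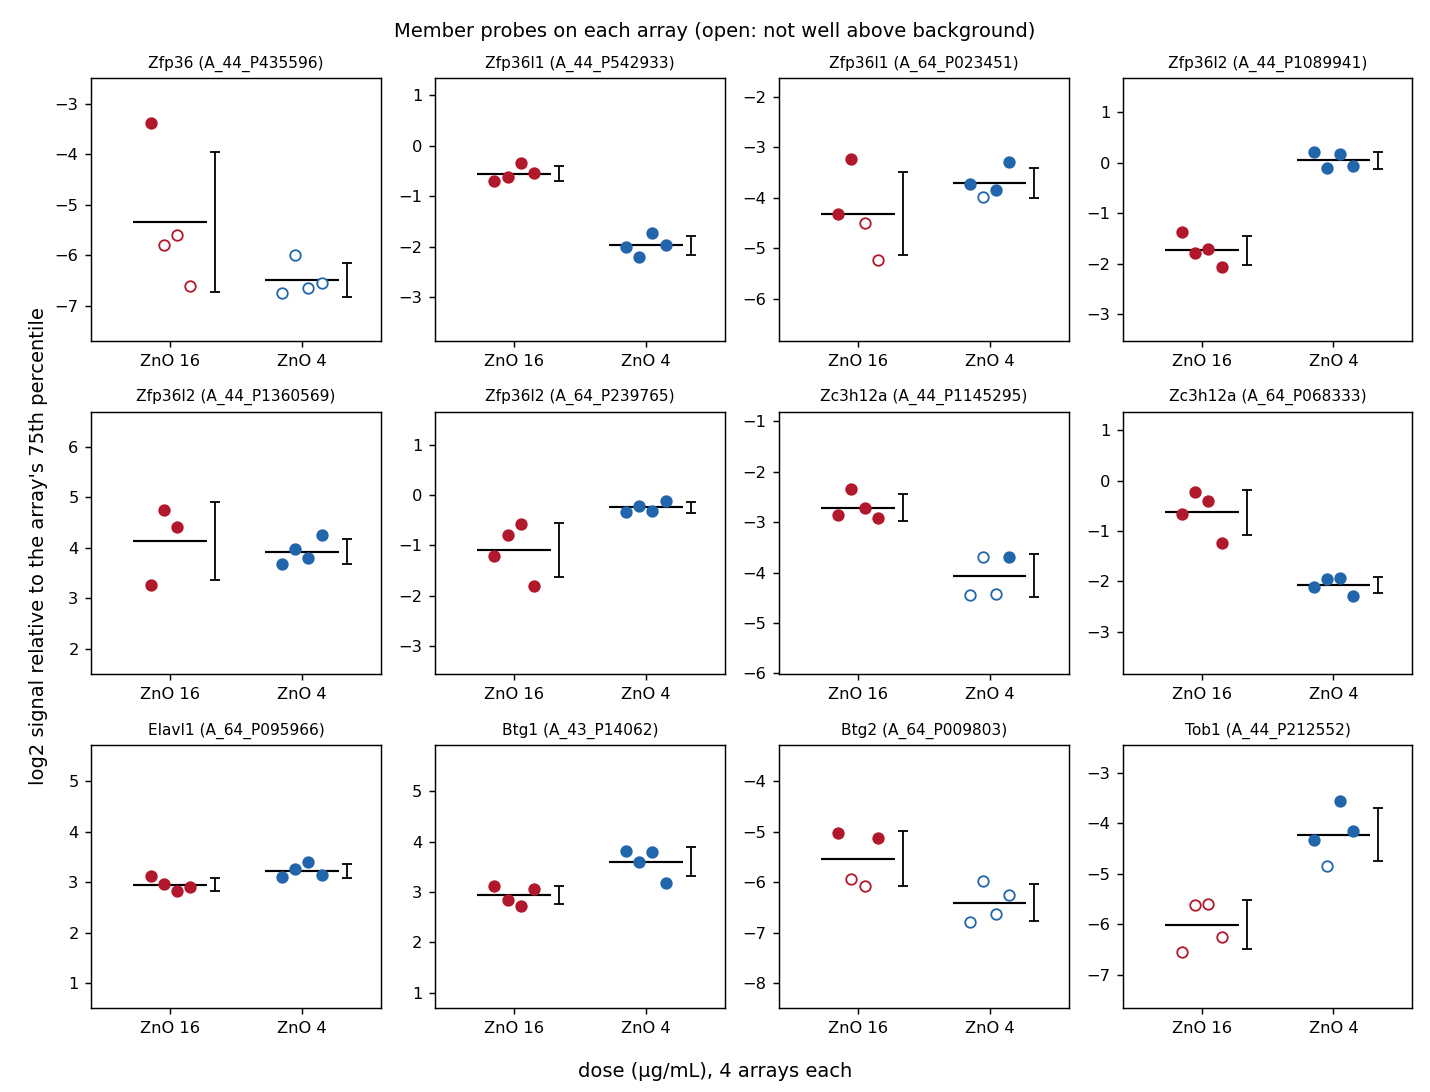
Each panel plots 1 probe, with the log2 signal over the array's 75th percentile on the y axis (every panel spans the same range) and the 4 arrays at 16 µg/mL left of the 4 at 4 µg/mL. Filled points were well above background, open points were not, lines are means and bars beside them SD; the flagged spot of the 3-array Zfp36l2 group is left out. The Zfp36l1 10-spot probe and both Zc3h12a probes lie higher at 16 µg/mL with no overlap, and the Zfp36l2 10-spot probe lies lower with no overlap. Most points of Zfp36, Btg2 and Tob1 are open.

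The AU-rich element binding destabilisers come first. Zfp36, the founding member of the family and an early response gene, was hardly measured. Its single probe (A_44_P435596) read -3.38, -5.80, -5.61 and -6.62 on ZnO 16 replicates 1 to 4, against -6.76, -6.01, -6.65 and -6.55 on ZnO 4 replicates 1 to 4. It was well above background on ZnO 16 replicate 1 alone, and replicate 4 of that dose lay inside the range of the ZnO 4 arrays. The probe did not pass the filter, and no difference is given. Such a reading says that the probe was near background, not that the mRNA was missing.

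Zfp36l1, which in other systems destabilises AU-rich mRNAs in the same way, was higher at 16 µg/mL on the probe printed in 10 spots (A_44_P542933). It read -0.70, -0.62, -0.34 and -0.55 on the ZnO 16 arrays and -2.003, -2.19, -1.73 and -1.96 on the ZnO 4 arrays. The doses did not overlap, as was true of 39.9% of all genes tested. The means were -0.55 ± 0.16 at 16 µg/mL and -1.97 ± 0.19 at 4 µg/mL (SD, n = 4 each), a rise of 1.42 on the log2 scale (SE 0.16), or 2.68-fold, with a limma adjusted p of 7.00e-05. The 10 spots lay close together within an array, with a range of 0.24 to 0.31 at 16 µg/mL and of 0.30 to 0.91 at 4 µg/mL. The rise was smaller than the largest of the spike-in differences given above. The call was lost without scaling (0.67, limma adjusted p = 0.211) and with spike-in scaling (0.62, limma adjusted p = 0.201). These settings shift all genes of an array by the same amount. The difference relative to the median gene, 1.42 in both, therefore could not change and supports nothing.

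A second Zfp36l1 probe (A_64_P023451, 1 spot) was dim and did not rise. It read -4.32, -3.24, -4.50 and -5.23 on the ZnO 16 arrays, 2 of which were well above background, and -3.72, -3.98, -3.86 and -3.30 on the ZnO 4 arrays, 3 of which were. The doses overlapped, with a difference of -0.61 (95% interval -1.49 to 0.27, limma adjusted p = 0.243 over 15572 probes). With the mean of both probes in place of the brighter one, the Zfp36l1 difference was 0.41 and its call was lost (adjusted p = 0.176).

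Zfp36l2, the third family member on the array, had 3 probes that disagreed. The probe printed in 10 spots (A_44_P1089941) read -1.38, -1.78, -1.70 and -2.07 on the ZnO 16 arrays and 0.20, -0.11, 0.17 and -0.07 on the ZnO 4 arrays. All arrays at 16 µg/mL lay below all at 4 µg/mL, with means of -1.73 ± 0.28 at 16 µg/mL and 0.05 ± 0.16 at 4 µg/mL (SD, n = 4 each). This probe fell by 1.78 (SE 0.17), or 3.44-fold, with a limma adjusted p of 2.67e-05 over all probes, and its call was kept in all 17 alternative fits of the probes, where the difference ran from -2.59 to -1.17.

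The second probe (A_64_P239765, 1 spot) went the same way by less. It read -1.22, -0.80, -0.58 and -1.80 on the ZnO 16 arrays and -0.35, -0.22, -0.31 and -0.11 on the ZnO 4 arrays. The doses did not overlap, and the probe fell by 0.85 (SE 0.24, limma adjusted p = 0.0158 over all probes). This call was likewise kept in all 17 fits, with differences of -1.66 to -0.62.

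The third and brightest probe (A_44_P1360569, 1 spot) did not fall. It read 3.27, 4.74 and 4.40 on ZnO 16 replicates 1 to 3 and 3.67, 3.96, 3.80 and 4.24 on the ZnO 4 arrays. The spot of ZnO 16 replicate 4 carried an outlier flag at 7.64 and was left out, so the fit had 3 arrays at that dose. The doses overlapped, with a difference of 0.22 (SE 0.31, 95% interval -0.48 to 0.92, limma adjusted p = 0.604), and with the flagged spot kept it was 1.09 (adjusted p = 0.255). Without ZnO 16 replicate 1 the difference of this probe was 0.65 and it was called higher (adjusted p = 0.0304). Where on the transcript each probe lies is not given in the files.

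**Figure D2:**
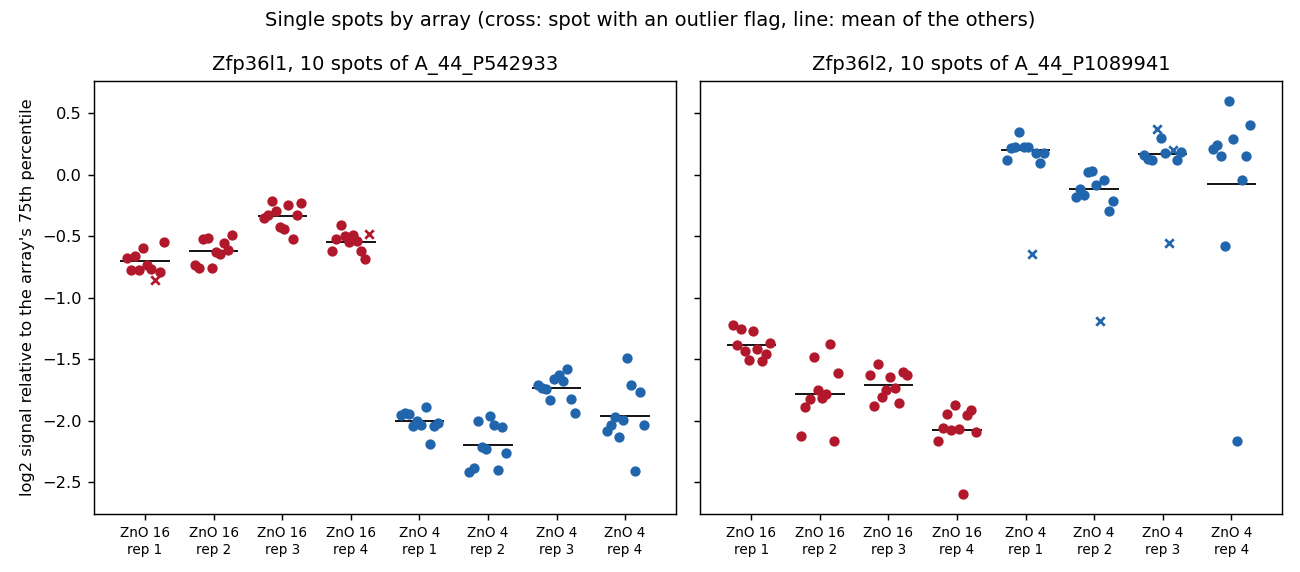
Single spots of the 10-spot probes of Zfp36l1 (left) and Zfp36l2 (right), with the log2 signal over the array's 75th percentile on the y axis and the arrays at 16 µg/mL left of those at 4 µg/mL. Crosses are spots with an outlier flag and lines are means of the other spots; the spots of Zfp36l1 are all higher at 16 µg/mL, and those of Zfp36l2 are lower except for 1 low spot at 4 µg/mL.

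That low Zfp36l2 spot was the same position on the slide on each array at 4 µg/mL. It read -0.64, -1.19 and -0.55 on replicates 1 to 3, where it was flagged and left out, and -2.17 on replicate 4, where it was not flagged. On replicate 4 it lay in an area of low signal, and with such areas masked the difference of the probe was -1.84. Among 1443 named genes with at least 2 kept probes, the median range of the probe differences was 0.49. A range as wide as that of Zfp36l2 (2.00) was seen in 4.78% of these genes and one as wide as that of Zfp36l1 (2.03) in 4.57%.

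A log2 ratio of 2 probes within an array does not depend on how arrays are scaled to each other. Of 7 such pairs of genes planned, 1 could be tested, because Zfp36, Btg2 or Rc3h1 was in each of the other 6. With the probes that stood for the genes, the ratio of Zfp36l1 to Zfp36l2 was 1.20 higher at 16 µg/mL (two-sided exact permutation p = 0.0571, the smallest that 35 assignments can give with 3 and 4 arrays), and with the flagged Zfp36l2 spot kept 0.33 higher (exact permutation p = 0.8). The other 5 combinations of kept probes were tested after the data were seen. The Zfp36l1 10-spot probe over the Zfp36l2 10-spot probe was 3.20 higher and over A_64_P239765 2.27 higher (exact permutation p = 0.0286 each, the smallest that 70 assignments can give). The dim Zfp36l1 probe gave 1.17 over the Zfp36l2 10-spot probe (exact permutation p = 0.0286), 0.24 over A_64_P239765 (exact permutation p = 0.543) and -0.52 over the brightest probe (exact permutation p = 0.229). Adjusted over the 6 tests, the exact permutation values ran from 0.0571 to 0.543 and none passed. The ratios thus describe pairs of probes, and their sign depended on the probes set against each other.

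Elavl1, the stabiliser, was bright at both doses and did not pass the test. Its probe (A_64_P095966, 2 spots) read 3.12, 2.96, 2.82 and 2.91 on the ZnO 16 arrays and 3.10, 3.26, 3.40 and 3.14 on the ZnO 4 arrays. The doses overlapped only through ZnO 16 replicate 1, and the means were 2.95 ± 0.12 at 16 µg/mL and 3.23 ± 0.14 at 4 µg/mL (SD, n = 4 each). The difference was -0.27 (95% interval -0.53 to -0.01, limma adjusted p = 0.0841). It was called lower with normexp background correction (-0.47, adjusted p = 0.0184), without scaling (-1.03, adjusted p = 0.0341) and with spike-in scaling (-1.08, adjusted p = 0.0248).

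**Figure D3:**
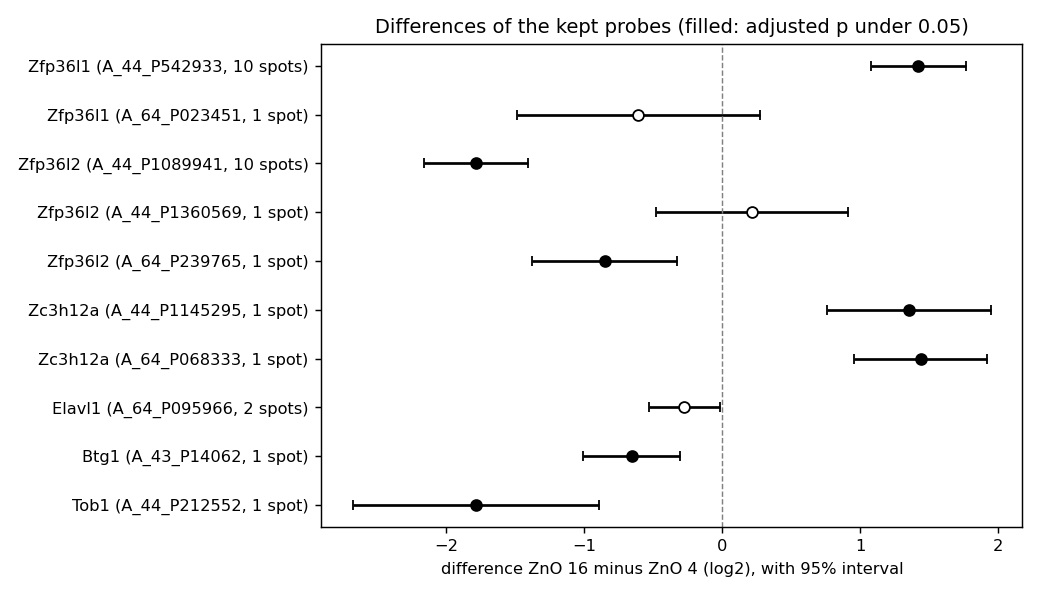
Differences between the doses (ZnO 16 minus ZnO 4, log2, x axis) of the 10 kept probes, with 95% intervals from limma; filled points had an adjusted p under 0.05 over all probes. The probes of Zfp36l1 and of Zfp36l2 each stand apart from one another, from -0.61 to 1.42 and from -1.78 to 0.22, while both Zc3h12a probes lie near 1.4. The dimmer Zc3h12a probe entered the test only through the ZnO 16 arrays, where it was high.

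Of the stem-loop regulators, Zc3h12a, the endoribonuclease, was called higher at 16 µg/mL on its brighter probe. The brighter probe (A_64_P068333) read -0.67, -0.23, -0.41 and -1.23 on the ZnO 16 arrays and -2.11, -1.96, -1.94 and -2.29 on the ZnO 4 arrays. The other (A_44_P1145295) read -2.87, -2.34, -2.72 and -2.92 on the ZnO 16 arrays and -4.45, -3.70, -4.43 and -3.69 on the ZnO 4 arrays, of which it was well above background on replicate 4 alone. This dimmer probe entered the test only through the ZnO 16 arrays, where it was high. Its values are therefore a description, and its call supports nothing by itself. On neither probe did the doses overlap. The brighter probe rose by 1.44 (SE 0.22, limma adjusted p = 0.000613), or 2.71-fold, and the other by 1.35 (SE 0.27, limma adjusted p = 0.00285 over all probes). As for Zfp36l1, the rise was smaller than the largest spike-in difference, and the call was lost without scaling (0.69, adjusted p = 0.170) and with spike-in scaling (0.64, adjusted p = 0.174). With normexp the call was kept at 0.76 relative to the median gene.

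Among the antiproliferative BTG and TOB genes, Btg1 was bright and lower at 16 µg/mL. Its probe (A_43_P14062) read 3.12, 2.85, 2.73 and 3.06 on the ZnO 16 arrays and 3.81, 3.59, 3.78 and 3.19 on the ZnO 4 arrays. The doses did not overlap, though ZnO 4 replicate 4 lay just above the ZnO 16 arrays. Btg1 fell by 0.66 (SE 0.16, limma adjusted p = 0.00849), or 1.57-fold, a change smaller than the largest spike-in difference in that direction. With median scaling the difference was -0.49 and the call was lost (adjusted p = 0.114).

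Tob1 was dim, and its call rests on the lower dose. Its probe (A_44_P212552) read -6.55, -5.62, -5.60 and -6.26 on the ZnO 16 arrays, none of them well above background, and -4.33, -4.85, -3.56 and -4.15 on the ZnO 4 arrays, of which all but replicate 2 were. The doses did not overlap, and the fitted difference was -1.78 (SE 0.40, limma adjusted p = 0.00600). These values are a description, since the filter let this probe in by its ZnO 4 signal alone. No smallest fold can be given, since the mean at 4 µg/mL lay below the mean of the lowest well-above-background signals of the ZnO 16 arrays. With normexp background correction the difference was -0.01 (adjusted p = 0.981).

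Btg2, a p53-responsive early gene, had 1 probe (A_64_P009803) in 2 spots that did not pass the filter. One spot read -3.27, -5.92, -6.03 and -3.63 on ZnO 16 replicates 1 to 4 and between -6.66 and -5.84 on the ZnO 4 arrays. The other spot read -6.76, -5.93, -6.09 and -6.61 on the ZnO 16 arrays and between -6.90 and -6.09 on the ZnO 4 arrays. So the signal of ZnO 16 replicates 1 and 4 came from 1 of the 2 spots, while the other spot of the same probe on the same arrays stayed at background. No difference is given for Btg2.

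The partners of these proteins were described with lists of genes, read beside the 41.7% of all genes called. Over all lists together 26 of 65 tested genes were called higher and 15 lower, with a median difference of 0.24. Without scaling 4 were called higher. These counts and the list counts below include genes whose probes passed the filter only through the dose where they were high. Decapping and 5′ to 3′ decay genes had 7 of 13 higher, Dcp1a among them, and 1 lower, with a median of 0.42. Dcp1a, a decapping cofactor not well above background at 4 µg/mL, was at least 1.66-fold higher. Its probe entered the test only through the ZnO 16 arrays, where it was high, so its call (limma adjusted p = 0.0108) supports nothing by itself. Lsm6, of the LSM ring that binds deadenylated mRNA, rose by 0.85 (SE 0.13) and Lsm2, of the same ring, fell by 0.70 (SE 0.18). Edc4, not called, differed by 0.10 on its brighter probe. Its other probe, which passed the filter only through the ZnO 4 arrays, differed by -2.20. In the CCR4-NOT complex, on which the ZFP36 and BTG proteins act, 1 of 8 was higher and 3 lower, with a median of -0.36. Cnot8, 1 of its deadenylase subunits, fell by 0.99 (SE 0.19) and Cnot11, a subunit of its N-terminal module, by 1.04 (SE 0.19), while Cnot10 rose by 0.62 (SE 0.22). Of the exosome and 3′ to 5′ decay genes 3 of 10 were higher and 3 lower, with a median of 0.13. The exosome subunits Exosc2 and Exosc5 rose by 1.41 (SE 0.26) and 0.95 (SE 0.17), and Exosc3, another subunit, and the nuclease gene Dis3l fell by 0.95 (SE 0.23) and 0.68 (SE 0.24). The Exosc3 probe entered the test only through the ZnO 4 arrays, where it was high, so its call supports nothing by itself.

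With normexp the list medians relative to the median gene were 0.08 for decapping, -0.17 for CCR4-NOT and 0.04 for the exosome, and leaving out single arrays gave 5 to 7 decapping genes higher. Of the 7 decapping rises, those of Lsm1, Lsm3, Lsm4 and Lsm7 were lost with normexp; Lsm1 was also lost with median scaling and without any 1 of the 8 arrays, and Lsm3 without ZnO 16 replicate 2 or ZnO 4 replicate 1, 2 or 4. Single calls in these 3 lists depended on settings as follows. The Cnot10 call was lost without ZnO 16 replicate 1 or 4 or without ZnO 4 replicate 1, 2 or 3, where it lay between 0.49 and 0.59 (adjusted p 0.0879 to 0.108). Dis3l passed only with all arrays or without ZnO 16 replicate 4; without any of the others it lay between -0.75 and -0.55 (adjusted p 0.0546 to 0.104), and the Dis3l (-0.51) and Exosc3 (-0.78) calls were lost with median scaling. The Exosc7 call was lost with median scaling (-0.42) and without ZnO 4 replicate 3 (-0.47). With normexp the calls of Cnot10, Cnot11, Exosc3 and Dis3l were lost, at 0.00, -0.30, -0.15 and -0.28 relative to the median gene.

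Other AU-rich element binding proteins had 3 of 7 higher and 2 lower, with a median of 0.41, or 0.13 relative to the median gene with normexp. Hnrnpd (AUF1), which is known mainly as a destabiliser, fell by 1.37 (SE 0.20), with levels of -3.16 ± 0.32 at 16 µg/mL and -1.78 ± 0.08 at 4 µg/mL (SD, n = 4 each). Tial1, a translational repressor of stress granules, rose by 0.69 (SE 0.16), and Celf1, which recruits deadenylases to GU-rich elements, by 0.67 (SE 0.21). Pcbp2, a poly(C)-binding protein, differed by -0.38 on its brighter probe and by 0.28 on the other. With normexp the calls of Hnrnpd (-0.58 relative to the median gene, adjusted p = 0.0856) and of Hnrnpc, the third one called higher, (0.04, adjusted p = 0.244) were lost. The Celf1 call was lost without ZnO 16 replicate 1 or 4 or without ZnO 4 replicate 3 or 4, where the difference lay between 0.51 and 0.64 (adjusted p 0.0533 to 0.0740). The Pcbp2 call was lost with median scaling and with quantile normalization. It was also lost without any 1 array other than ZnO 16 replicate 2 or ZnO 4 replicate 1. In the fits without 1 array that lost the call, the difference lay between -0.38 and -0.32 (limma adjusted p 0.0502 to 0.0869).

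Of relatives of regnase and roquin, 0 of 3 were higher and 1 was lower, Zc3h12d, another member of the regnase family. Its fitted difference was -1.103 (SE 0.24). The Zc3h12d probe entered the test only through the ZnO 4 arrays, where it was high, so this call supports nothing by itself. Normexp took the difference to -0.19 relative to the median gene (adjusted p = 0.897) and the list median (-0.13) to 0.02. Of the BTG and TOB relatives only Tob2 was tested; it differed by 0.51 (SE 0.12, limma adjusted p = 0.00840), and by -0.27 relative to the median gene with normexp (adjusted p = 0.547). Among the other deadenylases and poly(A)-binding proteins 0 of 4 were higher and 1 lower, Pabpc1, the main cytoplasmic poly(A)-binding protein, which fell by 0.55 (SE 0.13), a call lost with median scaling (-0.39, adjusted p = 0.0904). Of the p38 pathway kinases and PP2A subunits that act on ZFP36, 3 of 7 were higher and 1 lower. Mapkapk2, the kinase MK2 that phosphorylates ZFP36, rose by 0.67 (SE 0.15) and Ppp2r1a, a PP2A scaffold, by 0.94 (SE 0.14). The brightest of 3 probes of the catalytic subunit gene Ppp2ca fell by 0.71 (SE 0.11), and its other probes differed by 0.28 and 0.54. Map2k3, not called, differed by 0.05 on its brighter probe and by 1.16 on the other.

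Inflammatory mRNAs known as targets of ZFP36, ZC3H12A or RC3H1, mostly from mouse and human work, went both ways. Of 12 tested 8 were higher and 3 lower, with a median of 0.66. The 8 rises and the median include Dusp1, Fos and Pim1, which passed the filter only through the ZnO 16 arrays. With normexp that median was 0.44 relative to the median gene, and leaving out single arrays gave 6 to 8 genes higher. Among the rises, the calls of Ccl2 and Ccl4 were lost with normexp. Ccl4 was also lost without ZnO 16 replicate 2, 3 or 4 or without ZnO 4 replicate 1 or 3. The Ccl3 call was lost without any 1 of the ZnO 16 arrays or without ZnO 4 replicate 1, 3 or 4. Dusp1, a MAP kinase phosphatase gene not well above background at 4 µg/mL, was at least 51.6-fold higher. Its probe entered the test only through the ZnO 16 arrays, where it was high, so its call (limma adjusted p = 7.51e-08) supports nothing by itself. Ier3, an early response gene, rose by 2.05 (SE 0.20) and Plk3 by 2.83 (SE 0.22), both well above background on all 8 arrays. The fitted difference of Fos, an AP-1 subunit gene, was 5.67 (SE 0.30), with 2 of 4 arrays at 4 µg/mL well above background. Fos and Pim1, another gene called higher, likewise entered the test only through the ZnO 16 arrays, so their calls support nothing by themselves. Myc, a transcription factor, fell by 2.51 (SE 0.14), and the cytokine genes Il1b and Tnf were lower by -1.82 (SE 0.22) and, on the brighter probe, by -1.23 (SE 0.22). A dimmer Tnf probe, not well above background on any ZnO 16 array, differed by -0.49 with overlapping doses (limma adjusted p = 0.236 over all probes). The chemokine gene Cxcl2 differed by -0.26 (SE 0.23, limma adjusted p = 0.387). Probes of Il6, Ptgs2, Csf2, Cxcl1, Il12b, Il23a and Tnfrsf4 were not well above background on any of the 8 arrays. Whether any of these differences reflects decay or synthesis cannot be read from mRNA levels.

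**Figure D4:**
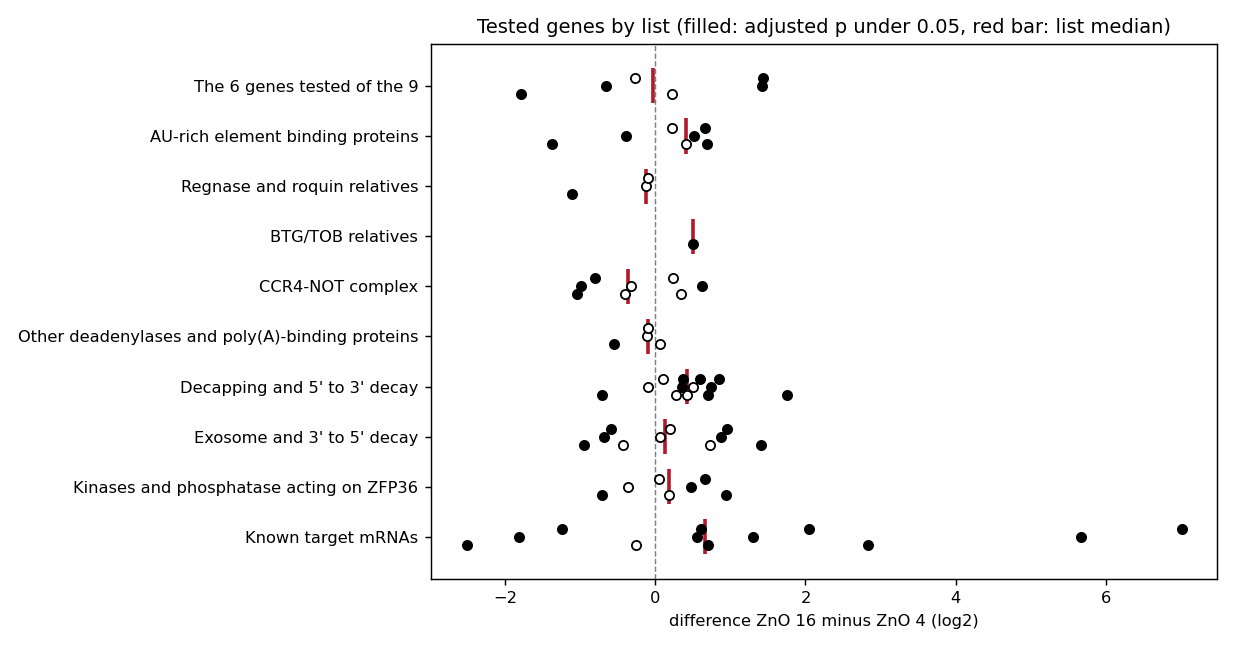
Differences between the doses (ZnO 16 minus ZnO 4, log2, x axis) of the tested genes of each list; filled points had an adjusted p under 0.05 over all genes and red bars are list medians. The 6 tested genes of the regulators themselves spread to both sides of 0, and the known target mRNAs run from -2.51 for Myc to Dusp1, which is plotted at its fitted difference although all its ZnO 4 spots were near background.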

How the data were processed

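Gene expression was measured in NR8383 cells on 8 Agilent 1-colour arrays. Per the submitters' processing notes, spots were quantified with Agilent Feature Extraction 11.0.1.1. The deposited processed signal is a linear intensity from which this software had removed background and spatial trends array by array, per the file headers, with no normalization between arrays; raw median intensity values of spot and local background and 0 or 1 flags accompany it. No spot was saturated. The p-values measure the spread between the arrays, which the series' design calls biological replicates.

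Accessions were matched without versions to RefSeq genes of GRCr8, which named 21109 of 45598 probes; the file headers name another build, so no coordinates of probes are given. Log2 signals were scaled to the 75th percentile of each array, flagged spots were left out and spots of a probe averaged. A probe counted as well above background on an array when as many of its spots did as did not, or more. The brightest kept probe stood for its gene. limma 3.58.1 under R 4.3.3 gave the two-sided tests of differences (eBayes with an intensity trend), and ratios with exact permutation tests in scipy 1.17.1. The number of arrays limits the precision. Bounds set a mean against the lowest well-above-background signals of the other dose.

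The genes and lists were chosen with earlier results of these data known. Named were all 9 genes, up to 2 called rises and 2 called falls per list, and 7 inflammatory targets where tested. Other genes of the lists are named where their calls depended on a setting or on the filter. Plk3, Map2k3 and Edc4 were added after their values were seen. Marker lists were summarised, with some markers named as examples after their values were seen. No genes most like Zfp36 are given, since it was not among the tested genes. Alternatives changed the background correction, scaling, filter, flags, masked areas, probe choice, arrays and the replicate block. Same-numbered arrays of the doses correlated at 0.25, 0.40, -0.22 and -0.03 in their deviations, so the numbers were not taken to pair the samples.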

Additional observations from a re-analysis of the deposited data

How the results depend on the processing

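Leaving out single arrays gave 2 to 3 of the decay regulators higher and 2 lower in each, 21 to 25 and 12 to 14 genes of the partner and target lists, and 1941 to 2758 and 2416 to 2818 of all genes, and the Zfp36l1 over Zfp36l2 change ran from 0.84 to 1.54. Without ZnO 16 replicate 1 the third regulator called higher was Zfp36l2 (0.653). Without scaling and with spike-in scaling the regulators called higher were 0 and 0, those of the lists 4 and 4, and of all genes 229 and 224 were higher and 4417 and 5084 lower; these settings move the median gene by -0.75 and -0.80. With median scaling 1 regulator was lower, and the median gene differed by 0.17; with normexp it differed by 0.15. With the mean of the kept probes 1 regulator was higher and the Zfp36l1 over Zfp36l2 change was 1.72. That value carries the flagged spot: on ZnO 16 replicate 4 the mean of 2 Zfp36l2 probes without the brightest was -1.93, against 0.22 to 0.72 for 3 probes on the other arrays of that dose. With other pairs of probes the change was 3.20, 2.27, 1.17, 0.24 and -0.52. The Zfp36l2 difference turned negative without scaling (-0.73), with spike-in scaling (-0.74), with signal required on all 8 arrays (-0.85), with the mean of the probes on each array (-1.31, moved by the same missing spot), with the mean of the 3 probe differences (-0.81), without ZnO 16 replicate 2 (-0.085) and with the probe in the most spots (-1.78); the last and the mean of differences were chosen after seeing the data. With signal required on all arrays, with the mean and with the most spots, other probes enter by construction. The cause of the other changes was not tested. With the replicate block 2 regulators were higher and 2 lower, with 2591 and 2881 of all genes, and no call among the 6 regulators changed. The low signal of Zfp36, Btg2 and Tob1 limits what can be said of them.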
